A study of Mus musculus with 5 samples.

Results

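Brown adipocyte nuclei of mouse interscapular brown adipose tissue (iBAT) were compared between the 2 libraries of 1 single-nuclei RNA sequencing matrix. The nuclei were chosen by their counts of unique molecular identifiers (UMIs), each of which tags 1 captured RNA molecule. A barcode was kept with at least 1000 UMIs, at least 0.8% of them in Adipoq, Plin1, Plin4, Lipe, Pparg, Cidec, Pnpla2 and Acsl1, at most 2 UMIs summed over Ptprc, Mrc1, Flt1, Cyyr1, Pdgfra, Abcc9, Ttn, Skap1 and Cadm2, and 0 UMIs of Cyp2e1, Aldh1a1 and Nnat. This left 9480 of the 20307 barcodes of the matrix, and of 50307 barcodes in the whole series, with 7577 nuclei in library 1 and 1903 in library 2. The matrix holds a control (WT) library and a Ucp1-STX4KO library, each from mice 3 months old, with 1 library per group and no replicate. The knockout mice carry STX4 fl/fl alleles and a Ucp1-Cre transgene, so that the deletion is driven from the Ucp1 promoter in brown adipocytes. The paper uses wild-type littermates as controls for this knockout elsewhere, without stating this for the single-nuclei libraries. All its mice were kept on a C57BL/6J background. Nuclei were pooled from male mice (the methods give 4, without dividing them among libraries) and sorted by flow cytometry before loading. Library membership was read from the last number of the barcode, which the labels do not tie to a genotype. The libraries are therefore called 1 and 2 throughout, genotype, mouse, dissection and library preparation cannot be told apart, and no difference here has a p-value or a replicate check. That Ppargc1a and Dio2 differ between the libraries was known when these nuclei were set apart, so their values are a description.

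Brown adipocytes burn fatty acids to make heat. Noradrenaline from sympathetic nerves binds β-adrenergic receptors, adenylyl cyclases raise cAMP, phosphodiesterases break it down, and protein kinase A phosphorylates CREB, which binds the cAMP response element TGACGTCA or its core TGACG. PGC-1α, the product of Ppargc1a, is a coactivator that this pathway induces within hours and that works with nuclear receptors on genes of mitochondria and thermogenesis. The deiodinase DIO2 makes active thyroid hormone in the same cells, NR4A1, NR4A2 and NR4A3 are orphan nuclear receptors that cAMP induces quickly, and UCP1 is the uncoupling protein of the inner mitochondrial membrane.

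The promoter windows of genes that this pathway is known to induce are shown for the letters of the cAMP response element, since 4 of these 5 genes differed by over 2-fold between the libraries and Ucp1 was within 2-fold. RefSeq windows from 250 bases before to 50 after each start site (GRCm38.p6, the coordinates of mm10) were searched on both strands. Each line gives 60 bases upstream of the start site on the gene's own strand, 5′ to 3′, that overlap no annotated exon. Capitals mark the full element in Dio2 and the core TGACG, or CGTCA where it reads on the other strand, in the others. The windows are chr5:51567741-51567800 (minus strand) for Ppargc1a, chr12:90739100-90739159 (minus) for Dio2, chr15:101266780-101266839 (plus) for Nr4a1, chr2:57124081-57124140 (minus) for Nr4a2 and chr8:83290175-83290234 (plus) for Ucp1.
Ppargc1a: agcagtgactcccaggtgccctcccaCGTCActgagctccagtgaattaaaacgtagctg
Dio2: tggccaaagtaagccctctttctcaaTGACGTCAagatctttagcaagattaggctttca
Nr4a1: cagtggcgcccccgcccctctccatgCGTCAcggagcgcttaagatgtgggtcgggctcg
Nr4a2: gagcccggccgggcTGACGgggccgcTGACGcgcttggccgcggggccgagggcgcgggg
Ucp1: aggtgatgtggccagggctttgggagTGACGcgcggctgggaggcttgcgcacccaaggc

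The full element stood in the Dio2 window, and 588 of 32851 RefSeq windows of the same length (1.79%) held it. The core, which is also part of the full element, stood 1 time in the Ppargc1a and Ucp1 windows and 4 times each in those of Nr4a1, Nr4a2 and Nr4a3, and 20.8% of all windows held at least 1 copy. These matches are letters in a window and not evidence of binding.

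The libraries differed in size, depth and composition before any gene was compared. The rule kept 67.6% of the 11201 barcodes of library 1 (exact Clopper-Pearson 95% interval, 66.8 to 68.5%) and 20.9% of the 9106 of library 2 (20.1 to 21.7%). Of the nuclei that passed the adipocyte share and the limit on other cell types, 78.0% in library 1 and 48.0% in library 2 had 0 UMIs of Cyp2e1, Aldh1a1 and Nnat. The chosen nuclei held 50701516 UMIs in library 1 and 10521509 in library 2. Median UMIs per nucleus were 6006 and 4607 and median genes 2695 and 1987, and the shallowest nucleus had 2057 UMIs in library 1 and 1002 in library 2. RNA from mitochondrial DNA made up 0.212% of the UMIs in library 1 and 0.0664% in library 2. Only 5 barcode sequences were shared between the chosen nuclei of the libraries. Each level below is a gene's UMIs summed over the nuclei of a library per 1000000 UMIs of those nuclei (CPM), and all intervals are 95% counting intervals that leave out the spread between mice, which was not measured.

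The brown adipocyte label was checked against markers the rule did not use. Comparison nuclei of the same matrix were those with under 0.4% of UMIs in the 8 adipocyte genes and at least 5 UMIs of the genes of other cell types, 277 in library 1 and 1022 in library 2. Of 11 brown adipocyte markers, 8 were higher in the chosen than in the comparison nuclei in both libraries, among them Ucp1 (3.26-fold in library 1 and 6.95-fold in library 2), Cidea (4.19-fold and 9.59-fold) and Ppara (9.44-fold and 10.6-fold). The 11 include Ppargc1a and Dio2, named for these nuclei with earlier results of these data known, and both are among the 8. Zic1 was lower in both libraries (0.253 and 0.517 of the comparison level), and Ebf2 and Cox7a1 were slightly lower in library 1 (0.909 and 0.914). The comparison nuclei also differed in makeup, since Pdgfra and Abcc9, markers of stromal and mural cells, were the leading gene in 79 and 99 of those in library 1, and Ptprc and Ttn, markers of leukocytes and muscle, in 293 and 291 of those in library 2. Just inside the adipocyte share limit (0.8 to 0.9%) Ppargc1a was at 671 CPM in library 1 and 17518.5 in library 2, and just outside it (0.7 to 0.8%) at 669 and 14961.8 CPM.

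Of 11050 genes with at least 200 UMIs over both libraries, 2619 (23.7%) were at least 2-fold higher in library 1 and 586 (5.3%) at least 2-fold higher in library 2, which left 7845 (71%) within 2-fold. The median gene was 1.34-fold higher in library 1 (0.42 on the log2 scale). With DESeq2 size factors in place of total UMIs this median fell to 0.17 and with TMM to 0.22, and with DESeq2 size factors 1815 genes (16.4%) were higher in library 1 and 793 (7.18%) in library 2. The list medians below are therefore read against 1.34, a comparison that no scaling alters. At least 5-fold higher were 288 genes in library 1 and 188 in library 2, and at least 10-fold higher 51 in library 1 and 100 in library 2. Gene length moved with the ratio: the median ratio of library 1 to 2 was 1.59 among the fifth of genes with the shortest span in the genome and 1.18 among those with the longest. The part of gene length in the list medians below was not tested. Genes for ribosomal proteins, which serve all cells, had a median of 1.12 with 0 of 76 past 2-fold in either direction.

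**Figure D1:**
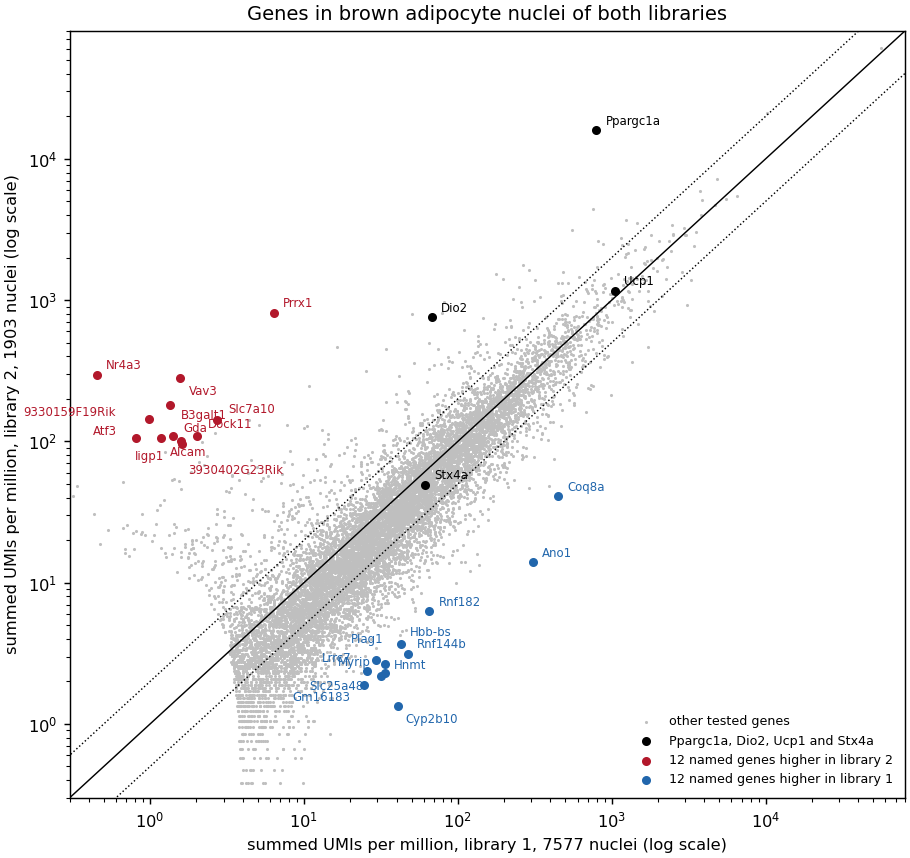
Summed CPM in library 1 (x axis) and library 2 (y axis), both on log scales, for 11039 of 11050 tested genes (11 fall below 0.3 and are not drawn). The solid line marks equal levels and the dotted lines 2-fold; Ppargc1a and Dio2 lie far above the upper dotted line while Ucp1 and Stx4a lie between the lines, and the named genes are those furthest from equality by the naming rule.

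Ppargc1a (chromosome 5, 51454250 to 51567726, minus strand, mm10) was at 795 CPM in library 1 (40323 UMIs) and at 15976.5 CPM in library 2 (168097 UMIs). It was 20.1-fold higher in library 2 (19.9 to 20.3). Among nuclei of like depth the fold was 14.4 at 2000 to 4000 UMIs, 19.1 at 4000 to 8000 and 24.1 above 8000. The difference was spread over most nuclei. With every nucleus thinned to 1000 UMIs, the median nucleus had 0 UMIs of Ppargc1a in library 1 and 12 in library 2, and the 5th and 95th percentiles were 0 and 3 in library 1 and 1 and 36 in library 2. At least 5 such UMIs were found in 64 of 7577 nuclei of library 1 (0.845%, 0.651 to 1.08%) and in 1459 of 1903 of library 2 (76.7%, 74.7 to 78.6%). A Ppargc1a UMI was present in 49.9% and 97.4% of the thinned nuclei (91.8% and 99.9% unthinned). The thinned comparison nuclei had one in 12.6% (8.96 to 17.1%) and 80.8% (78.3 to 83.2%), so the libraries parted in the same direction outside adipocytes, at 153 and 1976 CPM (12.9-fold, 11.05 to 15.3). Free RNA in the droplets gives such UMIs to cells of any type, and its part in the comparison nuclei was not tested. These comparison nuclei had median UMIs of 3282 and 3411.5.

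Dio2 (chromosome 12, 90724552 to 90738438, minus strand) was at 68.0 CPM in library 1 and 759 CPM in library 2, 11.2-fold higher in library 2 (10.7 to 11.6). The fold was 10.1, 10.6 and 12.5 in the same depth ranges, so it held at each. A Dio2 UMI was present in 6.26% of the thinned nuclei of library 1 and 42.1% of library 2, against 2.17% and 7.24% of comparison nuclei.

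**Figure D2:**
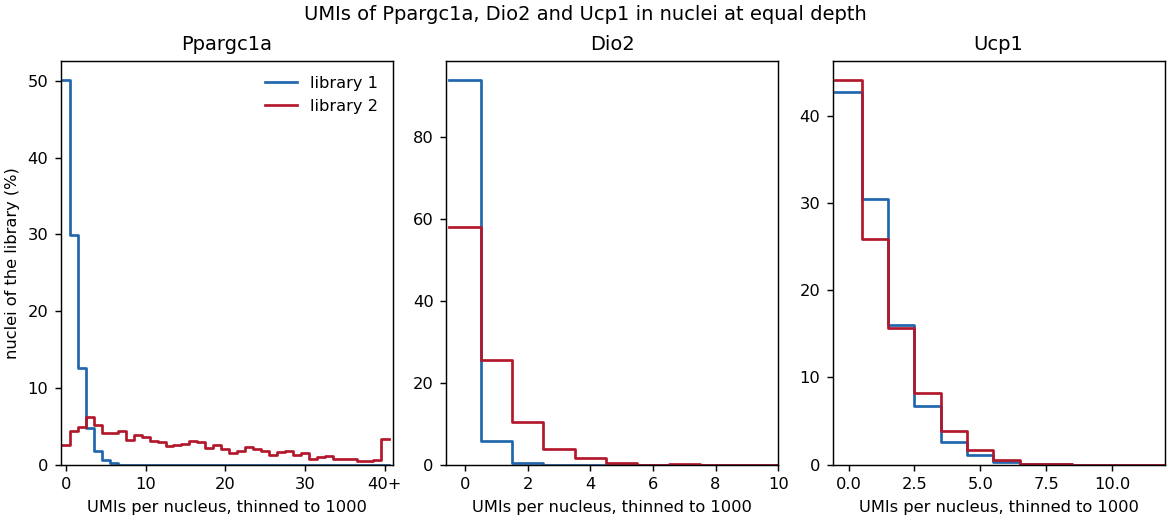
Share of nuclei (y axis, percent of the library) by UMIs of a gene per nucleus after thinning each nucleus to 1000 UMIs (x axis; 40+ pools 40 or more), for library 1 (7577 nuclei, blue) and library 2 (1903 nuclei, red). Ppargc1a has a median of 0 in library 1 and 12 in library 2, Dio2 is at 0 in most nuclei of both, and the Ucp1 curves nearly coincide.

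Genes that cAMP induces were the next to be compared. Their list, labelled cAMP-induced genes, also holds factors of the pathway. Among these are Creb1, Atf2, Sik3, Mapk14 and the coactivators Crtc1, Crtc2 and Crtc3, and the counts are of the whole list. Of 22 genes listed, 18 were tested. Without Dio2, whose difference was known beforehand, 6 of 17 were at least 2-fold higher in library 2 and 1 in library 1, against 5.3% and 23.7% of all genes. With TMM or DESeq2 scaling 8 were higher in library 2 (7.18% of all genes with DESeq2 size factors). The list median ratio of library 1 to 2 was 0.755 against 1.34. Nr4a3 had 23 UMIs (0.454 CPM) in library 1 and 3115 UMIs (296 CPM) in library 2, a 653-fold difference (434 to 1030), the largest of the genes named by the rule. Its ratio of library 1 to 2 was 0.00153, and 8.89e-04 in nuclei of 3000 to 6000 UMIs. It was 8.77e-04 with nuclei thinned to 1000 UMIs and 0 with an adipocyte share of at least 1.6%. Nr4a1 was at 16.5 and 465 CPM (28.2-fold higher in library 2, 26.2 to 30.4), Nr4a2 at 25.5 and 314 CPM (12.3-fold) and Sik1, a kinase that restrains CREB coactivators, at 34.4 and 189 CPM (5.50-fold). Sik3 (2.53-fold) and the clock gene Per1 (2.14-fold) were the other members past 2-fold. Crem, a cAMP-induced repressor, was 1.81-fold higher in library 2 and passed 2-fold with TMM or DESeq2 scaling. Other members were within 2-fold in the other direction, since Pck1 was at 1515 and 1151 CPM, and the coactivators Crtc1, Crtc2 and Crtc3 were 1.57-, 1.19- and 1.44-fold higher in library 1. Mapk14, the p38α kinase that acts on PGC-1α, was the member 2.50-fold higher in library 1. In single nuclei thinned to 1000 UMIs, an Nr4a3 UMI was present in 0.0264% of library 1 and 19.7% of library 2, and in 1.44% and 8.81% of comparison nuclei, so the share in library 1 did not exceed background.

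The thermogenic list did not move as a block. Ucp1 (chromosome 8, 83290352 to 83298452, plus strand) was at 1047 CPM in library 1 and 1166 CPM in library 2, and the ratio of library 1 to 2 was 0.898 (0.880 to 0.916), and the side of 1 depended on the choice of nuclei. It was 1.29 with an adipocyte share of at least 1.6% and 1.24 without the limit on Cyp2e1, Aldh1a1 and Nnat. A Ucp1 UMI was present in 57.4% and 56.0% of thinned nuclei, against 30.3% and 18.004% of comparison nuclei. Of 24 tested thermogenic and brown identity genes, 5 were at least 2-fold higher in library 2 (5.3% of all genes) and 8 in library 1 (23.7% of all genes), with a median ratio of 1.28. With DESeq2 size factors 4 were higher in library 1, near the 16.4% of all genes. Higher in library 2 were Elovl3, a fatty acid elongase (8.11 and 49.3 CPM, 6.09-fold), Gk, glycerol kinase (758 and 4408 CPM, 5.82-fold), Tbx15 (5.01-fold), the transcription factor Irf4 (3.70-fold) and the potassium channel Kcnk3 (2.82-fold). Higher in library 1 were Otop1 (120 and 45.5 CPM, 2.64-fold), Mpzl2 (2.46-fold), the cytochrome oxidase subunits Cox7a1 (2.45-fold) and Cox8b (2.40-fold), Ebf3, Pank1, Mtus1 and Lhx8. Prdm16, which holds brown identity, was at 498 and 801 CPM, and Cidea, a lipid droplet protein, at 1272 and 884 CPM.

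Of 20 tested genes for PGC-1 coactivators, ERR receptors and related factors, with Ppargc1a left out, 2 were at least 2-fold higher in library 2 and 0 in library 1 (5.3% and 23.7% of all genes), with a median ratio of 1.01 against 1.34. These were Mef2c (1.76 and 14.9 CPM, 8.501-fold) and Nrip1, a corepressor (2.45-fold). Ppargc1b, the paralogue of Ppargc1a, was at 2986 and 2889 CPM and the receptor Esrrg at 1866 and 1688 CPM. At the other end, Sirt3, a mitochondrial deacetylase, was 1.92-fold and the mitochondrial transcription factor Tfb1m 1.85-fold higher in library 1. Of 45 genes of the respiratory chain that the nucleus encodes, 8 were at least 2-fold higher in library 1 (3 with DESeq2 size factors). This was a smaller share than the 23.7% (16.4%) of all genes. Higher in library 2 were 0, against 5.3% of all genes. The list median was 1.54, from 0.898 for Ndufv2 and 0.985 for Uqcrc2 to 2.45 for Cox7a1 and 2.81 for Atp5e. RNA from mitochondrial DNA was at least 2-fold higher in library 1 for 12 of 13 genes (23.7% of all genes), with a median of 3.00 and a range from 1.95 for mt-Nd1 to 4.06 for mt-Atp6. Haemoglobin RNA, which red blood cells make, was also at least 2-fold higher in library 1 for 4 of 5 genes (23.7% of all genes). The median was 8.24, with Hbb-bs at 42.6 and 3.71 CPM, while Alas2 was 1.56-fold higher in library 1. The part that RNA from outside the nuclei has in the mitochondrial and haemoglobin ratios was not tested.

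Of 23 tested receptors and enzymes around cAMP, 6 were at least 2-fold higher in library 1, a share near the 23.7% of all genes. Toward library 2 there were 3, against 5.3% of all genes, and the list median was 1.26 against 1.34. The β3-adrenergic receptor Adrb3, which carries the adrenergic signal in mouse brown fat, was at 393 CPM in library 1 and 596 in library 2, and Adrb1 at 59.5 and 47.3. The α1 receptor genes Adra1a and Adra1d were higher in library 1, with Adra1a at 1715 and 463 CPM (3.70-fold, 3.598 to 3.81) and Adra1d at 10.1 and 0.665 CPM (15.1-fold, 7.28 to 37.8), the latter from 7 UMIs in library 2. The third α1 receptor gene, Adra1b, had 9 and 6 UMIs, and the interval of its ratio of library 1 to 2 took in 1 (0.311, 0.0989 to 1.06). The stimulatory G protein gene Gnas was 2.38-fold and Adcy9 3.66-fold higher in library 1. Adenylyl cyclases went both ways, since Adcy5 was at 1.16 and 35.3 CPM (30.3-fold higher in library 2) and Adcy3 at 261 and 897 CPM (3.44-fold higher in library 2). Prkar1a, a regulatory subunit of protein kinase A, was 2.28-fold higher in library 2. Among 13 phosphodiesterases, 5 were higher in library 2 (5.3% of all genes) and 2 in library 1 (0 with DESeq2 size factors), the latter a smaller share than the 23.7% of all genes, with a median of 0.726. Pde10a was 25.5-fold, Pde4b 14.01-fold, Pde11a 11.5-fold, Pde1c 5.36-fold and Pde7b 2.87-fold higher in library 2, while Pde5a was 2.31-fold and Pde8a 2.07-fold higher in library 1. Pde10a stood at 130 CPM in the chosen nuclei of library 2 and at 632 in its comparison nuclei, and the part of other cells in this ratio was not tested.

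**Figure D3:**
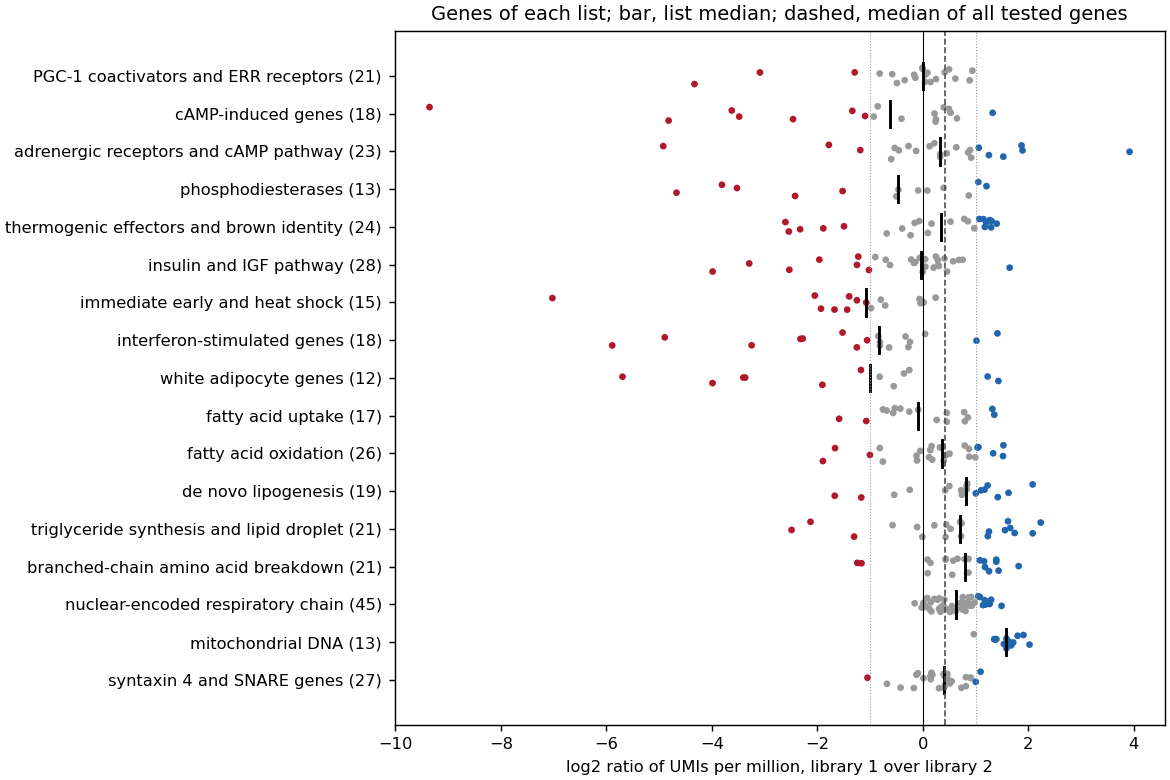
Each point is a gene of a list (number tested in brackets), placed by its log2 ratio of CPM in library 1 over library 2 (x axis); blue and red points are at least 2-fold higher in library 1 and 2. Black bars are list medians and the dashed line the median of all 11050 genes at 0.42; the bars of the cAMP-induced, immediate early, interferon and white adipocyte lists lie to the left of 0 and that of mitochondrial DNA furthest to the right.

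Of 28 tested insulin signalling genes, 7 were at least 2-fold higher in library 2 and 1 in library 1 (5.3% and 23.7% of all genes). The other 20 were within 2-fold, a share near the 71% of all genes, and the list median was 0.979. Irs2, an insulin receptor substrate, was at 50.6 and 801 CPM (15.8-fold, 15.1 to 16.6) and Irs1 at 175 and 681 CPM (3.90-fold). Igf1 was 9.78-fold, Trib1 2.38-fold, Grb14 2.34-fold and Tbc1d1 2.03-fold higher in library 2. The insulin receptor gene Insr (811 and 667 CPM) and the kinase gene Akt2 (258 and 153 CPM) were within 2-fold, and Trib3 was 3.13-fold higher in library 1. Of 29 glucose and hypoxia genes 24 were within 2-fold (71% of all genes), with a median of 1.18. Pdk1, which inhibits pyruvate dehydrogenase, was 8.39-fold and Slc2a5, a fructose transporter, 6.49-fold higher in library 1, while the hypoxia gene Egln3 was 2.07-fold higher in library 2 and the glucose transporter gene Slc2a4 was at 114 and 96.8 CPM.

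De novo lipogenesis had 7 of 19 genes higher in library 1, 2 in library 2 (23.7% and 5.3% of all genes) and a median of 1.77, and with DESeq2 size factors 3 were higher in library 1, close to the 16.4% of all genes. Pnpla3 was 4.23-fold, the transketolase gene Tkt 3.08-fold, Thrsp 2.68-fold and fatty acid synthase, Fasn (597 and 255 CPM), 2.34-fold higher in library 1. Me1, the malic enzyme that makes NADPH, was 3.18-fold and Elovl5 2.25-fold higher in library 2. Dgat1, which makes triglyceride, was at 292 and 1636 CPM (5.61-fold higher in library 2) and Dgat2, which does the same in another enzyme family, at 570 and 181 CPM (3.15-fold higher in library 1). Of 21 triglyceride and lipid droplet genes 8 were higher in library 1 and 3 in library 2 (23.7% and 5.3% of all genes), with a median of 1.63; Gpat3 was 4.38-fold higher in library 2, and Mogat2 4.70-fold and G0s2, an inhibitor of lipolysis, 3.34-fold higher in library 1. For the uptake of fatty acids, the lipoprotein lipase gene Lpl was at 1237 and 3714 CPM (3.00-fold higher in library 2) and Fabp5 2.10-fold higher in library 2, while Angptl4, which inhibits that lipase, was 2.49-fold and Lrp1 2.56-fold higher in library 1, and 13 of 17 genes were within 2-fold (71% of all genes), with a median of 0.941. In fatty acid oxidation 5 of 26 genes were higher in library 1 (3 with DESeq2 size factors), near the 23.7% (16.4%) of all genes. Higher in library 2 were 3 (5 with DESeq2 size factors), against 5.3% (7.18%) of all genes, and the list median was 1.28. Cpt1a, which admits fatty acids to mitochondria, was 3.72-fold higher in library 2, whereas the mitochondrial genes Acaa2 and Hadh were 2.88- and 2.87-fold higher in library 1. The breakdown of branched-chain amino acids had 8 of 21 genes higher in library 1 (Hsd17b10 3.52-fold, Mccc2 2.70-fold) and 2 in library 2 (Bckdhb 2.37-fold, Dbt 2.24-fold), against 23.7% and 5.3% of all genes, with a median of 1.73. With TMM or DESeq2 scaling 5 were higher in library 1 (16.4% of all genes with DESeq2 size factors). For cholesterol synthesis, 4 of 18 genes were higher in library 1, near the 23.7% of all genes, among them Fdft1 (9.47-fold) and Dhcr7 (3.87-fold). The list median was 1.35 against 1.34. By total UMIs 0 were at least 2-fold higher in library 2, against 5.3% of all genes. With TMM 1 was, and with DESeq2 scaling 2 were (7.18% of all genes), among them Lss (1.70-fold by total UMIs).

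Immediate early and heat shock genes respond to stress within minutes to hours. Of 15 tested, 8 were at least 2-fold higher in library 2 and 0 in library 1 (5.3% and 23.7% of all genes), with a median of 0.475. Atf3 was at 0.809 and 105 CPM (130-fold, 95.2 to 182), Hsph1 4.14-fold, Hsp90aa1 3.81-fold, Bag3 3.19-fold and Jun 2.70-fold higher. Fos (20 and 28 UMIs) and Fosb (6 and 18) lay under the minimum of 200 UMIs and were 6.75-fold (3.67 to 12.6) and 14.5-fold (5.50 to 44.5) higher in library 2, whereas Junb (14.5 and 12.3 CPM) and Hspb1 (15.3 and 15.1 CPM) were close to even. In the list of the integrated stress and unfolded protein responses, 16 of 23 genes were within 2-fold, a share near the 71% of all genes, with a median of 1.09. Beside Atf3, Slc7a11, a cystine transporter, was 38.8-fold higher in library 2, and Trib3 (3.13-fold) and Herpud1 (2.58-fold) were higher in library 1. Of 24 oxidative stress genes 1 was higher in library 2 (Hmox1, haem oxygenase, 11.3-fold), near the 5.3% of all genes. Higher in library 1 were 5 (2 with DESeq2 size factors), near or below the 23.7% (16.4%) of all genes, led by Gsta4 (5.60-fold) and Gpx3 (3.97-fold). Among p53 and cell death genes, 6 of 19 were higher in library 1 (Fas 5.04-fold, Bbc3 3.73-fold) and 1 in library 2 (Bcl2, 5.51-fold), against 23.7% and 5.3% of all genes, with a median of 1.36 near the 1.34 of all genes. Dusp1, a phosphatase that glucocorticoids and stress induce, was at 9.96 and 125 CPM (12.5-fold higher in library 2), while the glucocorticoid genes Hsd11b1 (4.46-fold) and Tsc22d3 (2.66-fold) were higher in library 1; of 13 glucocorticoid genes 3 were higher in library 1, near the 23.7% of all genes, and 2 in library 2 (5.3% of all genes). Of 22 clock genes 15 were within 2-fold, also near the share of all genes, with a median of 1.13, with Per1 and Bhlhe40 2.14- and 2.02-fold higher in library 2 and Rorb and Hlf 3.34- and 3.14-fold higher in library 1.

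The study asks about pyroptosis, an inflammatory cell death, and these genes were scarce in the chosen nuclei. Of 20 inflammasome and pyroptosis genes 5 reached 200 UMIs, with a median ratio of 1.80. Txnip was at 947 and 400 CPM (2.37-fold higher in library 1) and Ninj1 2.28-fold higher in library 1, and neither was past 2-fold with DESeq2 size factors. The core genes had few UMIs. Casp1, which encodes the caspase of the inflammasome, had 10 UMIs in library 1 and 32 in library 2 (0.197 and 3.04 CPM), 15.4-fold higher per UMI sequenced in library 2 (7.40 to 35.2). Casp4 (27 and 84 UMIs) was 14.99-fold (9.62 to 24.1), Nlrp1b (22 and 43) 9.42-fold (5.51 to 16.5), Gsdmd (7 and 10) 6.88-fold (2.37 to 21.3) and Il18 (20 and 17) 4.10-fold (2.02 to 8.23) higher in library 2. These scarce genes lay on the other side from the 5 tested ones, which were all above 1 toward library 1, and Aim2 (10 and 32 UMIs, 15.4-fold, 7.40 to 35.2) and Tnf (0 and 3 UMIs) also lay toward library 2. Nlrc4 (46 and 15 UMIs), Il33 (13 and 5), Il1a (12 and 0), Il1b (4 and 0) and Nlrp3 (2 and 0) had intervals that took in 1, since library 1 held 4.82 times the UMIs of library 2. The macrophage gene Adgre1, at 26 and 51 UMIs, was as scarce and 9.45-fold higher in library 2 (5.78 to 15.8), the macrophage markers summed below were also higher there, and the part of macrophage RNA was not tested. Of 18 interferon-stimulated genes, 8 were higher in library 2 and 2 in library 1 (5.3% and 23.7% of all genes), with a median of 0.563. With DESeq2 size factors 11 and 1 were (7.18% and 16.4% of all genes). Iigp1, an interferon-induced GTPase, was at 1.62 and 95.8 CPM (59.2-fold), Gm4951, a member of the same family, at 1.10 and 32.8 CPM (29.7-fold) and Usp18 9.48-fold higher in library 2, while the RNA sensor Ddx58 was 2.66-fold and Eif2ak2 2.02-fold higher in library 1. The classical members Ifit1, Ifit3, Isg15 and Irf7 had 7 to 49 UMIs in each library.

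Genes more typical of white than of brown adipocytes were also compared, after the rule had removed every nucleus with a UMI of Cyp2e1, Aldh1a1 or Nnat. Of 12 tested, 6 were higher in library 2 and 2 in library 1 (5.3% and 23.7% of all genes), with a median of 0.505. With DESeq2 size factors 7 and 1 were (7.18% and 16.4% of all genes). Slc7a10, an amino acid transporter, was at 2.74 and 142 CPM (51.7-fold, 43.4 to 62.0), Dpt 15.9-fold, the adipokine gene Retn 10.6-fold and Npr3, a receptor that clears natriuretic peptides, 10.3-fold higher in library 2 (78.8 and 813 CPM). Trarg1 and Fasn were 2.70- and 2.34-fold higher in library 1. A limit of 0 UMIs removes fewer nuclei where depth is low, and library 2 was shallower (median UMIs of 4607 against 6006). The part that white-type nuclei left in by the limit have in these ratios was not tested. Among secreted factors, 6 of 21 were higher in library 2 (Slit3 13.1-fold, Igfbp4 11.3-fold) and 2 in library 1 (Angptl4 2.49-fold, Apoc1 2.11-fold), against 5.3% and 23.7% of all genes. With DESeq2 size factors 6 and 1 were (7.18% and 16.4% of all genes). Of 17 matrix genes 5 were higher in library 2 (5.3% of all genes), among them Col15a1 (33.7-fold) and Adamts1 (7.99-fold), and 3 in library 1 (23.7% of all genes), among them Sparc (3.66-fold) and Tgfbr2 (2.69-fold). For ion channels, 5 of 11 were higher in library 2 (Kcnma1 23.4-fold, Cacna2d1 4.09-fold) and 3 in library 1 (Ano1 22.02-fold, Cacnb2 2.51-fold), against 5.3% and 23.7% of all genes, the latter a like share. In creatine and calcium cycling, which can make heat without UCP1, 11 of 15 genes were within 2-fold (71% of all genes). Atp2b4 (14.4-fold) and Alpl (3.88-fold) were higher in library 2, and Slc8b1 (2.33-fold) and Micu2 (2.16-fold) in library 1. With DESeq2 size factors 4 were higher in library 2 and 0 in library 1 (7.18% and 16.4% of all genes).

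Stx4a, which encodes syntaxin 4, the SNARE protein that the study deletes (chromosome 7, 127824294 to 127849019, plus strand), was at 61.1 CPM in library 1 (3100 UMIs) and 49.4 CPM in library 2 (520 UMIs). The ratio of library 1 to 2 was 1.24 (1.13 to 1.36), below the median gene at 1.34, and 1.63, 1.22 and 1.22 in the ranges of 2000 to 4000, 4000 to 8000 and over 8000 UMIs. In thinned nuclei a Stx4a UMI was present in 6.08% and 4.68%, against 5.05% (2.79 to 8.33%) and 4.89% (3.65 to 6.40%) of comparison nuclei, so the share of nuclei did not separate adipocytes from other cells. These counts do not say which library carries the deletion. Of 27 tested syntaxin and SNARE genes 24 were within 2-fold (71% of all genes), with a median of 1.32, near the 1.34 of all genes; Napa was 2.07-fold higher in library 2, and Vamp7 (2.13-fold) and Vamp1 (2.00-fold) were higher in library 1 (neither with TMM or DESeq2 scaling). The Y-linked genes Ddx3y, Uty, Eif2s3y and Kdm5d were present in both libraries (87.2 to 509 CPM) and Xist had 20 and 5 UMIs. Of 15 nuclear long noncoding RNAs 4 were higher in library 1 and 3 in library 2 (23.7% and 5.3% of all genes), with a median of 1.22. Malat1 was at 56364 and 60608 CPM, Meg3 2.78-fold and Ctcflos 2.41-fold higher in library 2, and Gm11714 (10.2-fold) and Plet1os (7.31-fold) higher in library 1.

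The 12 genes with the highest ratio on each side were named by rule, from genes with at least 1000 UMIs that were past 2-fold under every scaling and on the same side in every depth range. Toward library 2 they followed Nr4a3 with Vav3, a guanine nucleotide exchange factor (1.56 and 280 CPM, 180-fold), 9330159F19Rik (145-fold), the glycosyltransferase B3galt1 (135-fold), Atf3, Prrx1, a homeobox factor of mesenchymal cells (6.37 and 816 CPM, 128-fold, 115 to 144), the adhesion protein Alcam (89.4-fold), guanine deaminase, Gda (78.2-fold), 3930402G23Rik (62.5-fold), Iigp1, Dock11 (54.7-fold) and Slc7a10. Prrx1 was at 166 CPM in the comparison nuclei of library 2, under its level in the chosen nuclei, whereas Vav3 (491 CPM), B3galt1 (311 CPM), Alcam (749 CPM) and Dock11 (183 CPM) were higher in those comparison nuclei than in the chosen ones. Toward library 1, Cyp2b10, a cytochrome P450, was at 41.1 and 1.33 CPM (30.9-fold, 18.4 to 56.6). Ano1, a calcium-activated chloride channel, was at 308 and 13.97 CPM (22.02-fold, 18.7 to 26.1) and Coq8a, which serves the synthesis of coenzyme Q, at 450 and 40.9 CPM (11.02-fold, 10.02 to 12.2). The others were Rnf144b (15.02-fold), Myrip (14.7-fold), the mitochondrial carrier Slc25a48 (14.5-fold), Gm16183 (13.01-fold), Hnmt, which inactivates histamine (12.6-fold), Hbb-bs (11.5-fold), Lrrc7 (10.8-fold), Rnf182 (10.4-fold) and Plag1 (10.3-fold). The size of these folds depended on the choice of nuclei, and Lrrc7, for example, was at 89.5-fold in nuclei of 3000 to 6000 UMIs, and Hnmt at 5.14-fold and Rnf144b at 5.91-fold without the limits on other genes. In thinned nuclei an Ano1 UMI was present in 23.3% of library 1 and 1.84% of library 2, and a Coq8a UMI in 36.3% and 4.47%, the shares in library 2 lying at or under those of its comparison nuclei (4.89% and 5.38%).

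Markers of other cell types summed to less in the chosen than in the comparison nuclei, but also differed between the libraries. Each sum holds 1 or 2 genes that the choice of nuclei used, so the lower sums were partly set by that choice. Ttn alone was at 45.9 CPM in the chosen and 24491 CPM in the comparison nuclei of library 2. The gap between the sums was narrowest for Schwann cell markers in library 2, at 237 CPM in the chosen and 500 in the comparison nuclei. Endothelial markers in library 2 were at 98.5 and 447 CPM. The counts below stand against 5.3% of all genes at least 2-fold higher in library 2 and 23.7% in library 1. Summed over 10 skeletal muscle markers the level was 39.2 CPM in library 1 and 181 in library 2 (3 of 3 tested genes higher in library 2, the most abundant being Dmd at 31.6 and 75.7 CPM), against 3240 and 40388 CPM in the comparison nuclei. For 12 macrophage markers it was 83.1 and 175 CPM (1 of 3 tested genes, Dock2, higher in library 2, Rbpj the most abundant), for 12 stromal progenitor markers 65.0 and 158 CPM (4 of 6, Gsn the most abundant), for 10 Schwann cell markers 113 and 237 CPM (4 of 6, Mbp the most abundant) and for 10 lymphocyte markers 7.36 and 26.9 CPM (no gene with enough UMIs). Endothelial markers summed to 132 and 98.5 CPM (1 tested, Mecom, within 2-fold) and mural markers to 66.7 and 42.9 CPM (1 of 3, Cspg4, higher in library 1). The part these cells have in the genes above was not tested. With at most 0 UMIs of the 9 genes of other cell types, 6900 and 1122 nuclei remained and the Ppargc1a fold was 20.8 and the Dio2 fold 10.8.

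Within library 2 the nuclei spanned a wide range of Ppargc1a, and other genes were followed along it. Nuclei were put into 5 groups of equal size by their Ppargc1a UMIs after thinning, which are ranges and not cell types, and Ppargc1a itself went from 2570 CPM in the lowest group to 31133 in the highest. Ucp1 went from 343 to 1672 CPM, Irs2 from 334 to 1185, Nr4a1 from 215 to 643, Nr4a3 from 143 to 453 and Dio2 from 450 to 979 CPM, and for each of these the 5 groups were in rising order. Lpl was flatter (3529 and 4109 CPM). Adipoq, a gene the rule used, went the other way, from 153 to 42.7 CPM. Depth also differed between the groups (median UMIs of 4072 in the lowest and 5949 in the highest), and its part was not tested. The groups were formed from the same Ppargc1a UMIs that its CPM counts, so its own range is partly set by the grouping. In library 1 the mean was 0.812 thinned Ppargc1a UMIs a nucleus against 14.4 in library 2, so single UMIs set the order of its nuclei, and its lowest 2 groups both held only nuclei with 0 and have no order. The groups of library 1 (487 to 1466 CPM of Ppargc1a) can therefore not be set against those of library 2.

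**Figure D4:**
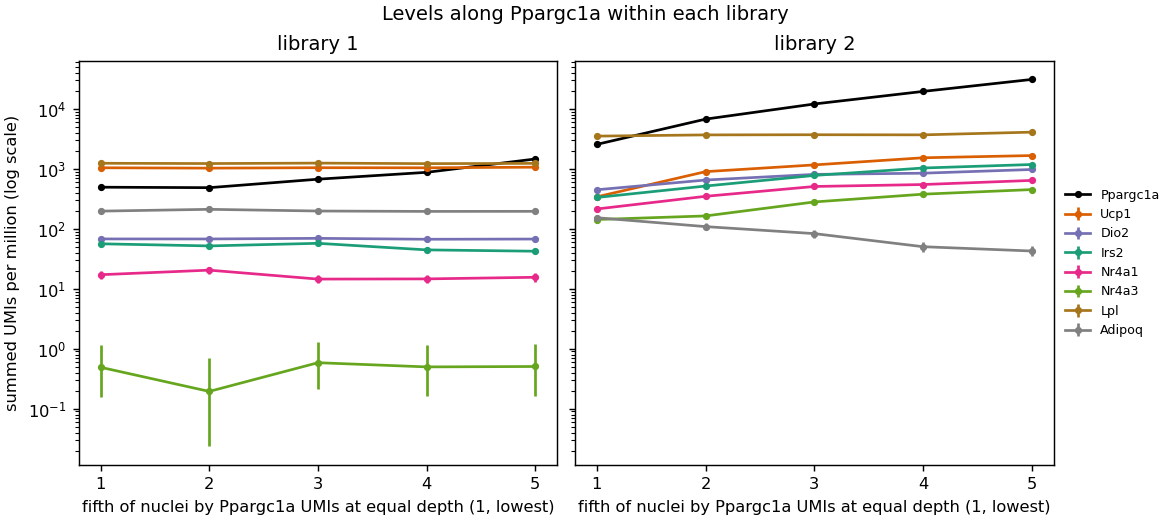
Summed CPM (y axis, log scale) in 5 groups of nuclei ordered by their Ppargc1a UMIs after thinning to 1000 (x axis), for library 1 (1515 or 1516 nuclei a group) and library 2 (380 or 381). Bars are exact Poisson 95% intervals (not drawn for Ppargc1a); in library 2 Ucp1 goes from 343 to 1672 and Adipoq from 153 to 42.7, while the groups of library 1 rest on a mean of 0.812 thinned Ppargc1a UMIs a nucleus and are not comparable.

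Across 3551 genes with at least 200 UMIs in the highest and lowest of these groups, 202 (5.69%) were at least 2-fold higher in the highest group and 250 (7.04%) in the lowest, with Ppargc1a left out of the totals. The genes with the largest ratios were chosen after their values were seen. Toward high Ppargc1a they were Ryr2, a calcium release channel (13.1 and 121 CPM, 9.26-fold), Kng2 (8.72-fold), Ugp2, which makes UDP-glucose for glycogen (325 and 2599 CPM, 7.99-fold), Gmpr (173 and 1385 CPM, 7.99-fold), the noncoding RNA Lncbate10 (7.22-fold) and Atf3 (7.04-fold). Toward low Ppargc1a they were the G protein gene Gnal (198 and 8.70 CPM, 22.8-fold), transferrin, Trf (16.8-fold), Col15a1 (14.4-fold), Abcd2, a peroxisomal transporter (12.0-fold), and Dock11 (11.02-fold), and Car3, a carbonic anhydrase of fat and muscle, was at 3496 and 447 CPM (7.82-fold). Slc7a10 was at 357 CPM in the lowest group and 49.8 in the highest. Between these groups Slc7a10 and Dock11, both higher in library 2, thus went the opposite way to Nr4a3 and Irs2.

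The aging matrix of the same tissue gave 3 further libraries (493, 452 and 152 nuclei by the same rule, median UMIs of 2374, 2067.5 and 2276) from mice of 2, 12 and 24 months, again with no tie from library to age, and with more mitochondrial RNA (1.02, 9.34 and 4.92%). They are single libraries of other ages and serve as values to set beside, not as controls. Ppargc1a was at 458, 575 and 472 CPM there, so library 1 (795) lay near and library 2 (15976.5) far above all of them. Nr4a3 was at 15.02, 12.7 and 15.5 CPM, between library 1 (0.454) and library 2 (296). Nr4a1 was at 65.6, 821 and 28.4 CPM, so an aging library exceeded library 2, and Dio2 at 111, 212 and 59.3 CPM. Irs2 (138, 278 and 43.8 CPM) and Gk (523, 614 and 750 CPM) stayed below library 2 (801 and 4408). Ucp1 ranged from 580 to 1935 CPM and took in both libraries. Coq8a was at 550, 517 and 508 CPM, near library 1 (450) and far above library 2 (40.9), and Ano1 at 260, 132 and 126 CPM, with library 1 above and library 2 below that range. For 9 of the 12 genes named toward library 2 and 4 of the 12 toward library 1, the libraries lay outside the range of the aging libraries on opposite sides. For 6 of the 12 toward library 1, library 2 alone lay outside it, and for Lrrc7 both libraries lay inside. These positions compare levels without their intervals. Where it was outside the range, library 1 lay inside the interval of an aging library for Slc25a48, Hnmt, Plag1, Coq8a, Prrx1, 3930402G23Rik, Iigp1 and Dock11. Library 2 did for Iigp1 and Cyp2b10.

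**Figure D5:**
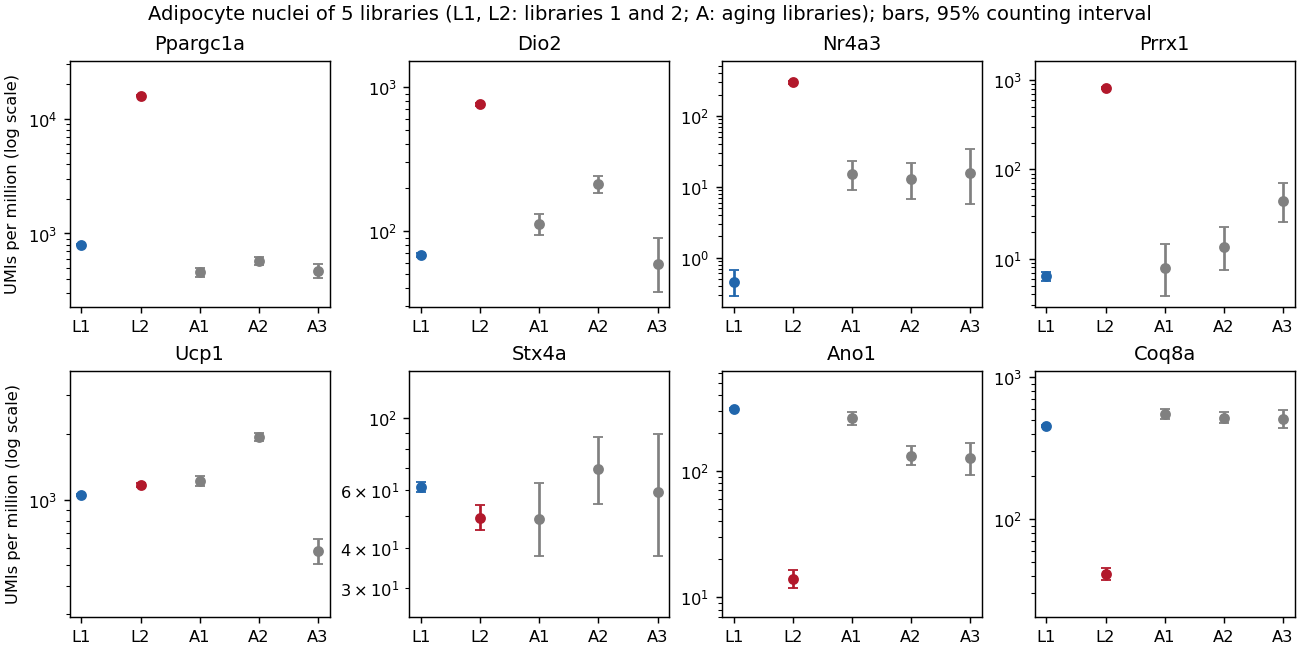
CPM (y axis, log scale) of 8 genes in adipocyte nuclei of libraries 1 and 2 (L1, L2) and of the 3 aging libraries (A1 to A3), with exact Poisson 95% intervals. Library 2 lies above all others for Ppargc1a, Dio2, Nr4a3 and Prrx1 and below all others for Ano1 and Coq8a, while Ucp1 and Stx4a show no such separation.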

How the data were processed

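Single-nuclei RNA sequencing matrices of iBAT were analysed. The authors deposited unnormalised UMI counts for each gene in each nucleus, made with Cell Ranger 6.1.2 on mm10, with 10000 cells forced according to the methods. The submitters' notes also name Seurat 4.1.0. The annotation release, and whether depth was equalised between libraries, are not given in the sources used here. No label ties a barcode's final number to a sample, so no sample was assigned and no test was made.

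Nuclei were selected by the rule given at the start of the results. The members, gene lists and naming rule were chosen with earlier results of these data known. UMIs were summed per library in Python 3.11.15 (pandas 2.3.3, numpy 2.4.6; intervals with scipy 1.17.1) and divided by the library's total in those nuclei. Intervals were exact Poisson (levels), conditional binomial (ratios) and Clopper-Pearson (shares). Scaling factors came from edgeR 4.0.16 (TMM) and DESeq2 1.42.0 in R 4.3.3. Genes needed 200 UMIs to be compared. A difference was counted at 2-fold.

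Named genes were Ppargc1a, Dio2, Ucp1 and Stx4a, the 12 most extreme genes on each side (1000 UMIs, past 2-fold under total, TMM and DESeq2 scaling, same side in each depth range, not used by the selection) and the 2 highest and 2 lowest of each of 39 lists. Other genes were named after their values had been seen. The rule named 4 depth ranges, but library 1 has no nucleus of 1000 to 2000 UMIs, so the other 3 were used. No doublet caller was run. Instead, the 10% of nuclei with most UMIs per library were left out as an alternative. Where a symbol occurs more than once, the row with more UMIs was used. Positions are from GENCODE vM21 and promoters from RefSeq, both GRCm38. Some members of the lists are not reported here by name.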

Additional observations from a re-analysis of the deposited data

Results flagged for a closer look

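Ucp1 differed in direction between kinds of nuclei. In the chosen adipocyte nuclei its ratio of library 1 to 2 was 0.898 (95% counting interval, 0.880 to 0.916), and in the comparison nuclei, which carry few adipocyte transcripts, it was 1.91 (1.67 to 2.19), from 321 and 168 CPM. With an adipocyte share of at least 1.6% the adipocyte ratio was 1.29, and without the limit on Cyp2e1, Aldh1a1 and Nnat 1.24, on the same side as in the comparison nuclei, so the opposite directions hold only under some choices of nuclei. The difference between the kinds of nuclei was not tested, since there is 1 library a side. The comparison nuclei differ in cell makeup between the libraries, and the part of this in the ratio was not tested.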

How the results depend on the processing

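No paired analysis was possible because each group has 1 library. The 2-fold counts kept within 1.5 times of 2619 and 586 under every other scaling and choice of nuclei tried, and left that range only with the gene minimum (4289 and 3523 genes with at least 1 UMI in each library and no other minimum, 1237 and 289 with 1000 UMIs). The Ppargc1a fold of library 2 over 1 was 20.1, and the Dio2 fold 11.2. They were 23.2 and 12.9 with TMM, 23.9 and 13.3 with DESeq2 size factors, 17.5 and 9.89 in nuclei of 3000 to 6000 UMIs, 17.7 and 9.99 with nuclei thinned to 1000 UMIs, and 17.7 and 10.1 as means of CPM over nuclei. With an adipocyte share of at least 1.6% they were 14.2 and 9.496, and without the limit on Cyp2e1, Aldh1a1 and Nnat 15.1 and 9.16. Ppargc1a was also at 20.8 with 0 UMIs of the genes of other cell types and at 18.7 without the tenth of nuclei with most UMIs. Alternatives added after seeing the data dropped the limits on genes of other cell types and on Cyp2e1, Aldh1a1 and Nnat (14.9 and 9.16) or kept nuclei of at least 2000 UMIs (20.4 for Ppargc1a). The Ucp1 ratio of library 1 to 2, 0.898, lay on the other side of 1 in 3 of 12 alternatives (1.29 with an adipocyte share of at least 1.6%, 1.24 without the limit on Cyp2e1, Aldh1a1 and Nnat, and 1.25 without either limit on other genes). Of 312 values of the 24 extreme genes, Ucp1 and Stx4a, 88 left the counting interval and 45 moved over 1.5 times, such as Lrrc7 from 10.8 to 89.5 in nuclei of 3000 to 6000 UMIs and Cyp2b10 from 30.9 to 69.3 with the stricter share. These results rest on 1 library a side, counting intervals leave out the spread between mice, and the minimum of 200 UMIs was a choice that left most pyroptosis genes out of the counts.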
